A study of Homo sapiens with 8 samples.

Results

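Autophagy genes and the MiT transcription factors were examined in 22Rv1, an established human cell line of castration-resistant prostate cancer, treated with the MARK3 kinase inhibitor PCC0208017 or with DMSO as vehicle. RNA sequencing was done on 8 libraries, 4 labelled Control and 4 labelled MARK3i. All libraries came from the same unmodified line, and neither dose nor exposure time is stated in the sources used here. Whether the replicates are separate cultures is not stated either; p-values then reflect only library-to-library spread, which may be technical. Effects through MARK3 and other effects of the compound cannot be told apart with 1 inhibitor.

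The 41 genes were chosen by name, out of 58735 gene identifiers in the count files, and all 41 were found by their GENCODE symbol. They cover 5 steps: 5 genes of initiation, 11 of nucleation and membrane supply, 15 of conjugation including the Atg8 family, 5 cargo receptors, and 5 encoding transcription factors and their regulator FLCN. All 41 passed the filter on low counts and were among the 16452 genes tested.

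Autophagy delivers cytoplasmic material to the lysosome. A kinase complex built around ULK1 or ULK2 starts it, a lipid kinase complex around PIK3C3 marks the growing membrane, ubiquitin-like reactions attach Atg8-family proteins (LC3 and GABARAP proteins) to that membrane, and receptors tether the cargo to them. The MiT factors TFEB, TFE3 and MITF are basic helix-loop-helix proteins that activate autophagy and lysosome genes. They are kept in the cytoplasm when the nutrient-sensing kinase complex mTORC1 phosphorylates them, which FLCN promotes through the Rag GTPases.

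Total counts ranged from 12672817 to 13386143 in control libraries and from 13517289 to 21271127 in inhibitor libraries. Transcripts of HOXB13, KRT8 and EPCAM were present in all libraries, and the prostate-specific antigen gene KLK3 was 26.8-fold lower with the inhibitor. MARK3, the inhibitor's target, was at 77.99 ± 2.31 CPM in controls and 90.64 ± 2.29 CPM with the inhibitor. The 4 basal prostate markers summed to 0.820 to 0.871 CPM (counts per 1e+06 reads assigned to genes, scaled between libraries with TMM factors) in controls and to 0.135 to 0.415 CPM in inhibitor libraries. Of 6 stromal markers 2 passed the filter on low counts, and COL1A1 was called (11.4 ± 2.20 CPM in controls and 18.0 ± 3.04 CPM with the inhibitor), while COL1A2 and COL3A1 were near 0. The stromal sum was 11.6 to 16.6 CPM in controls and 15.8 to 23.6 CPM with the inhibitor, and its part in the results was not tested. The 8 immune and endothelial markers summed to 1.48 to 2.05 CPM in controls and 1.39 to 2.65 CPM with the inhibitor, and CD3E, PECAM1 and CDH5 had no count in any library.

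Transcripts of the autophagy machinery were mostly higher in inhibitor-treated cells. Of the 41 genes, 28 rose, 2 fell and 11 did not pass the test (edgeR quasi-likelihood, adjusted p under 0.05 over all tested genes). Among all tested genes 29.8% rose and 28.3% fell, 58% in either direction. The rises reached all 5 cargo receptor genes and 4 of 5 initiation genes, and the falls were those of TFEB and ATG101. The median log2 fold change (inhibitor minus control) of the 41 genes was 0.37, against 0.02 over all tested genes. Most changes were small: 21 of the 30 called genes changed by less than 0.5 on the log2 scale, and OPTN and GABARAPL1 were the 2 that changed by at least 1. All 4 inhibitor libraries lay above all 4 controls for 26 of the 41 genes and below them for 2, against 25.8% and 25.1% of all tested genes (51% in either direction). Summed over the 41 genes, the level was 2253 to 2275 CPM in controls and 2953 to 3058 CPM with the inhibitor. In bulk RNA, a different number of cells in some state and a different amount of RNA per cell cannot be told apart.

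**Figure D1:**
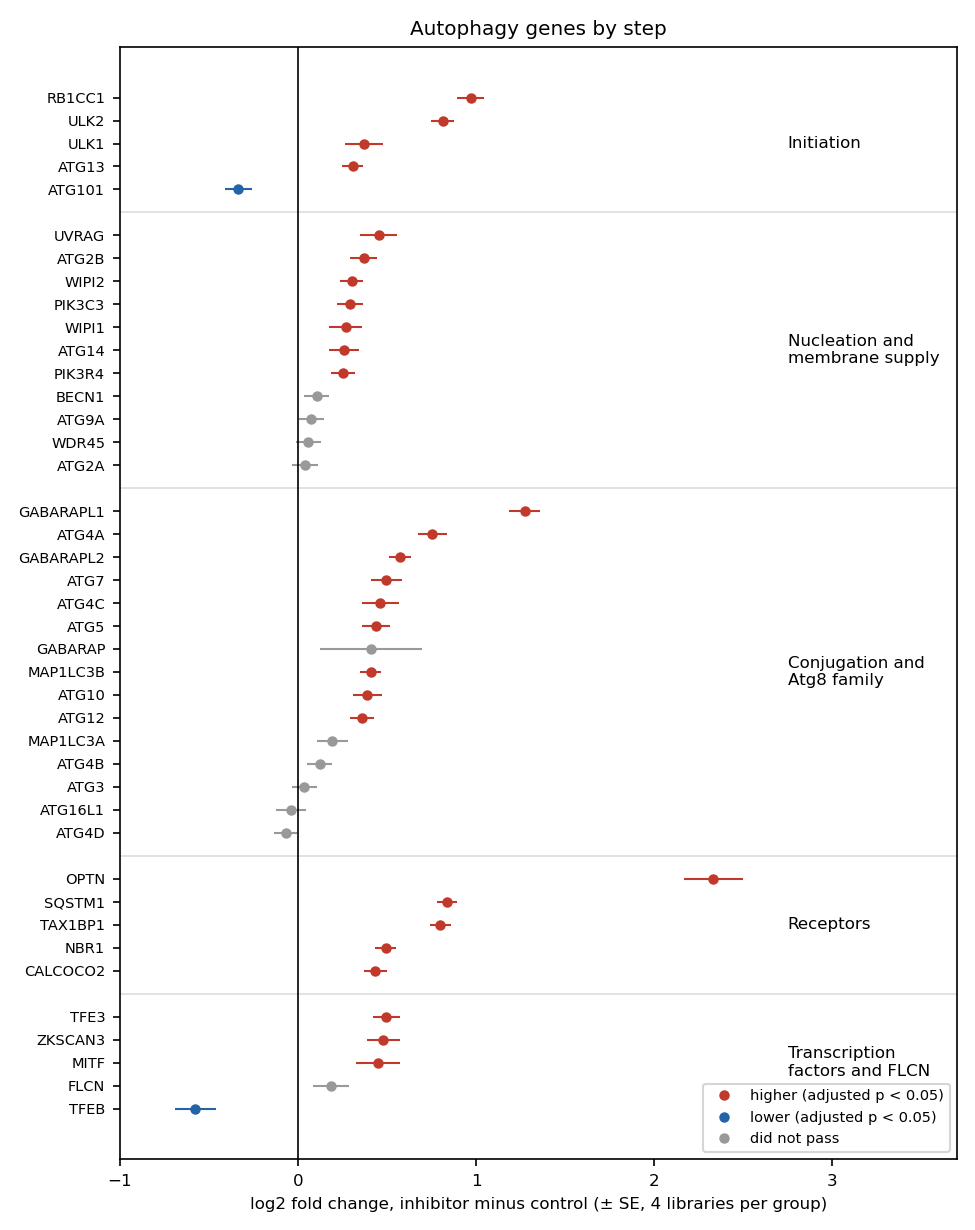
Log2 fold change (inhibitor minus control, horizontal axis) of the 41 genes, grouped by step, with points for the estimate and bars for its SE (4 libraries per group). Red points rose, blue points fell and grey points did not pass; TFEB and ATG101 are the 2 blue points, and OPTN lies farthest to the right at 2.33.

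Scaling matters for the small changes. When libraries were scaled by total counts, the median of all tested genes moved from 0.02 to 0.13, 38.1% of tested genes rose and 21.9% fell, and 34 of the 41 genes rose and 2 fell. The share of rises among all calls went from 51.3% to 63.6%. With an adjustment for transcript GC content 35 of the 41 rose and 2 fell, where 30.3% of all tested genes rose and 29.6% fell.

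Among initiation genes, the scaffold and 1 of the kinases rose most. RB1CC1, which encodes the scaffold FIP200 of the ULK complex, was at 56.7, 56, 47.64 and 48.14 CPM in control replicates 1 to 4 and at 112.1, 91.47, 107.2 and 97.97 CPM in inhibitor replicates 1 to 4. Every inhibitor library was well above every control, a 1.96-fold rise (log2 fold change 0.97 ± 0.08 SE, adjusted p = 6.32e-11). ULK2 (ENSG00000083290; chromosome 17, 19770829 to 19867936, hg38, minus strand) encodes 1 of the 2 initiating kinases. It went from 39.47, 42.93, 40.26 and 40.33 CPM in controls to 72.99, 70.57, 74.19 and 68.66 CPM with the inhibitor, with no overlap (0.81 ± 0.07, adjusted p = 1.1e-10).

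The other kinase gene, ULK1, rose less evenly. Its controls were at 118.9, 120.5, 128.5 and 129.6 CPM and its inhibitor libraries at 119.8, 191.3, 163.9 and 166.2 CPM. Inhibitor replicate 1 thus lay within the control range while the other inhibitor libraries lay above it (0.37 ± 0.11, adjusted p = 0.00888). Leaving out each library in turn moved the ULK1 value between 0.27 and 0.47. The log2 ratio of ULK2 to ULK1 was -1.61 ± 0.09 in controls and -1.14 ± 0.31 with the inhibitor (SD, n = 4), a description, since this pair and the pairs below were chosen after the values were seen.

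ATG13, which encodes the adaptor that links the kinases to the scaffold, was at 87.63, 88.55, 80.11 and 86.29 CPM in controls and at 109.2, 111.2, 99.06 and 104 CPM with the inhibitor. The gap between the groups was modest but complete (85.65 ± 3.80 and 105.9 ± 5.47 CPM, mean ± SD, n = 4; 0.31 ± 0.06, adjusted p = 0.000139). ATG101 encodes the partner that stabilises ATG13, and it was the initiation gene that fell. It was at 50.67, 47.21, 53.71 and 54.92 CPM in controls and at 43.22, 41.4, 35.66 and 43.28 CPM with the inhibitor, so the groups did not overlap (-0.34 ± 0.08, adjusted p = 0.000534). With the GC adjustment the ATG101 value shrank to -0.20 (adjusted p = 0.00819).

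**Figure D2:**
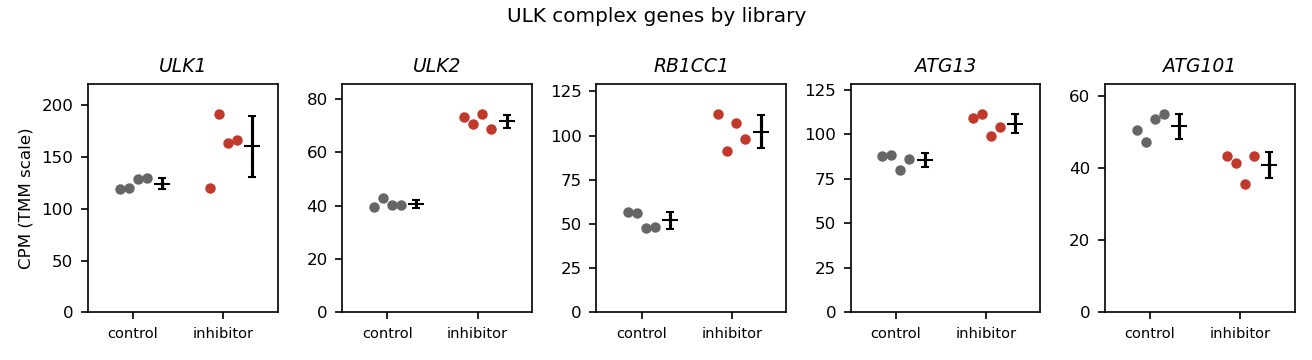
Level in CPM on the TMM scale (vertical axis, starting at 0) of the 5 initiation genes in each library, grey for control and red for inhibitor, with the mean and SD of 4 libraries in black. Points run from replicate 1 to 4 from left to right; inhibitor replicate 1 of ULK1, at 119.8 CPM, sits among the controls, and ATG101 is lower with the inhibitor.

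Genes of nucleation and membrane supply rose modestly: 7 of 11 rose and 4 did not pass; the median was 0.26 and the highest value 0.45. In the lipid kinase complex, UVRAG, which encodes a subunit of its endosomal form, was at 13.55, 10.61, 12.79 and 10.77 CPM in controls and at 16.8, 17.71, 14.78 and 15.83 CPM with the inhibitor. Its groups did not overlap (0.45 ± 0.11, adjusted p = 0.000678). The catalytic subunit gene PIK3C3 (0.29 ± 0.07, adjusted p = 0.00133) and the regulatory subunit gene PIK3R4 (0.25 ± 0.07, adjusted p = 0.00262) rose as well, PIK3C3 by 0.15 with the GC adjustment. ATG14, which directs the complex to autophagy, rose from 33.13 ± 3.67 to 39.46 ± 2.94 CPM with overlapping libraries (0.26 ± 0.08, adjusted p = 0.0106). Its call ended without control replicate 4 (0.19, adjusted p = 0.0652), and its exons share 1047 bases with FBXO34 on the opposite strand, which rose too (0.41). BECN1, the gene of the Beclin subunit shared by both forms, was at 43.32 ± 2.69 CPM in controls and 46.58 ± 0.635 CPM with the inhibitor. It did not pass (0.10 ± 0.07, adjusted p = 0.198), but was called higher with total counts (0.21, adjusted p = 0.0115). The exons of BECN1 share 300 bases with PSME3 on the opposite strand, which fell from 158 to 116 CPM.

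Of the readers of the lipid mark, WIPI2 and WIPI1 were called. WIPI2, whose protein binds the lipid made by PIK3C3 and recruits the conjugation machinery, rose from 132.7, 140.3, 147.8 and 158.6 CPM in controls to 173.3, 180.5, 166.6 and 193.5 CPM, with no overlap (0.30 ± 0.06, adjusted p = 0.000234). WIPI1 changed by 0.27 ± 0.09 (adjusted p = 0.017). It was no longer called by DESeq2 (adjusted p = 0.0593), with no filter (0.0551), or without control replicate 4 (0.0525) or inhibitor replicate 3 (0.065). The exons of WIPI1 share 829 bases with ARSG on the opposite strand, which fell from 8.07 to 2.91 CPM. The third WIPI family gene here, WDR45, did not pass (0.06 ± 0.07, adjusted p = 0.484), but was called higher with total counts (0.16, adjusted p = 0.04) and with the GC adjustment (0.16, adjusted p = 0.0155).

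ATG2B, which encodes a lipid transfer protein feeding the growing membrane, was at 52, 54.26, 49.86 and 48.92 CPM in controls and at 66.02, 65.8, 75.8 and 57.39 CPM with the inhibitor. All inhibitor libraries were above the controls (0.37 ± 0.08, adjusted p = 0.000186). Its paralog ATG2A did not pass (0.04 ± 0.07, adjusted p = 0.676). With the GC adjustment ATG2A was called higher (0.21, adjusted p = 0.00136), close to the 0.28 of ATG2B in that fit. The log2 ratio of ATG2B to ATG2A was -0.34 ± 0.15 in controls and -0.01 ± 0.24 with the inhibitor (SD, n = 4), and the groups overlapped. ATG9A, the gene of the lipid scramblase carried by the seed vesicles, did not pass either (0.08 ± 0.07, adjusted p = 0.363). It was called higher with total counts (0.18, adjusted p = 0.0317) and with the GC adjustment (0.20, adjusted p = 0.0134). The exons of ATG9A share 1833 of 4724 bases with ENSG00000284820 on the same strand, which was at 0.694 CPM in controls and 0.767 CPM with the inhibitor.

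In the conjugation step 9 of 15 genes rose and 6 did not pass the test; the median was 0.41. The leading rise was GABARAPL1 (ENSG00000139112; chromosome 12, 10212458 to 10223128, plus strand), an Atg8-family gene. It was at 15.11, 16.48, 14.19 and 16.77 CPM in controls and at 34.23, 41.22, 36.08 and 39.48 CPM with the inhibitor. The lowest inhibitor library was more than any control, a 2.42-fold rise (1.27 ± 0.09, adjusted p = 5.2e-12), and the annotated antisense gene GABARAPL1-AS1 had no count in any library.

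GABARAPL2, the paralog with the highest level per kilobase of exon in both groups, rose from 102.4, 96.87, 97.17 and 91.75 CPM in controls to 147, 151.9, 131.9 and 146.3 CPM, again with no overlap (0.57 ± 0.06, adjusted p = 1.52e-08). MAP1LC3B, which encodes the LC3B protein used to mark autophagosomes, rose from 89.45 ± 3.99 to 118.8 ± 2.49 CPM (0.41 ± 0.06, adjusted p = 1.59e-06). MAP1LC3A did not pass (34.11 ± 2.65 and 38.84 ± 5.16 CPM; 0.19 ± 0.09, adjusted p = 0.065), although it was called without inhibitor replicate 1 (0.23, adjusted p = 0.0287) or 3 (0.23, adjusted p = 0.0368), with upper-quartile factors, with total counts and with the GC adjustment. Without inhibitor replicate 2 the MAP1LC3A value fell to 0.12.

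GABARAPL1 made up a larger part of the Atg8 family in the inhibitor libraries. The log2 ratio of GABARAPL1 to GABARAPL2 was -2.64 ± 0.16 in controls and -1.94 ± 0.11 with the inhibitor (SD, n = 4). Per kilobase of annotated exon, GABARAPL1 held 4.63% ± 0.390 of the summed level of GABARAPL1, GABARAPL2, MAP1LC3A and MAP1LC3B in controls and 8.13% ± 0.317 with the inhibitor, so it stayed the smallest of the 4. GABARAP itself was counted at 0.981 to 2.56 CPM over all libraries and is left out of this sum. Its exons, 1951 bases in all, share 691 bases with ENSG00000262526 on the same strand. Reads that fit more than 1 gene may not be counted, and how the authors treated them is not stated in the sources used here. Its low level is therefore not read as low expression, and its difference did not pass (0.41 ± 0.28, adjusted p = 0.225).

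Among genes of the proteases that prepare and recycle Atg8 proteins, ATG4A and ATG4C rose. ATG4A was at 20.2, 19.96, 17.3 and 19.97 CPM in controls and at 31.09, 33.49, 31.31 and 34.78 CPM with the inhibitor, with a wide gap between the groups (0.75 ± 0.08, adjusted p = 2.22e-08). The ATG4C value was smaller (0.46 ± 0.10, adjusted p = 0.000413). ATG4B (0.12 ± 0.07, adjusted p = 0.13) and ATG4D (-0.07 ± 0.07, adjusted p = 0.383) did not pass. ATG4B was called higher with total counts (0.23, adjusted p = 0.00754) and with the GC adjustment (0.24, adjusted p = 0.000185), and ATG4D was 0.12 (adjusted p = 0.0443) with the latter. The log2 ratio of ATG4A to ATG4B went from -2.10 ± 0.20 to -1.47 ± 0.04 and that of ATG4C to ATG4D from -2.50 ± 0.33 to -1.95 ± 0.13 (SD, n = 4).

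Among the conjugating enzymes, the shared activating enzyme gene ATG7 rose from 17.93 ± 1.39 to 25.35 ± 1.36 CPM (0.50 ± 0.09, adjusted p = 2.51e-05). The exons of ATG7 share 1597 bases with VGLL4 on the opposite strand, which was at 47.3 CPM in controls and 52 CPM with the inhibitor. The ubiquitin-like protein gene ATG12 (0.36 ± 0.07), its acceptor ATG5 (0.44 ± 0.08) and ATG10, whose enzyme joins them (0.39 ± 0.08), rose in all inhibitor libraries relative to all controls. With the GC adjustment the ATG12 value was 0.22. ATG10 shares 374 exonic bases with the abundant ribosomal protein gene RPS23 on the opposite strand. ATG3, the enzyme gene that attaches Atg8 proteins to lipid, and ATG16L1, which positions the ATG12-ATG5 conjugate, did not pass (0.04 ± 0.07 and -0.04 ± 0.08, adjusted p = 0.669 and 0.714). Genes of both conjugation systems were thus among those that rose and those that did not pass.

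All 5 cargo receptor genes rose, with a median of 0.80 and no overlap between the groups in any of them. SQSTM1 (ENSG00000161011; chromosome 5, 179806398 to 179838078, plus strand) encodes p62, which carries ubiquitinated cargo. It was at 136.5, 134.1, 147.1 and 136.3 CPM in controls and at 264.7, 243, 230.8 and 251.3 CPM with the inhibitor. The groups lay far apart (1.79-fold; 0.84 ± 0.06, adjusted p = 5.7e-12). The exons of SQSTM1 share 1582 of 7535 bases with MRNIP on the opposite strand, which rose from 31.4 to 50.7 CPM. The sources used here do not say whether counting was by strand, so reads from the overlaps cannot be told apart.

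TAX1BP1, which encodes a receptor for ubiquitinated cargo and protein aggregates, went from 189.3, 180.4, 168.5 and 167.3 CPM in controls to 329.9, 294.9, 300.0 and 303.5 CPM (0.80 ± 0.06, adjusted p = 1.51e-11). It had the highest CPM of the 41 genes in the inhibitor libraries. OPTN, which encodes the mitophagy receptor optineurin, had the largest fold change from the lowest level per kilobase of exon. It was at 1.879, 2.059, 1.394 and 2.028 CPM in controls and at 9.55, 10.11, 7.776 and 9.68 CPM with the inhibitor, which were 17 to 225 counts per library. All inhibitor libraries were far above the controls (5.03-fold; 2.33 ± 0.17, adjusted p = 1e-11), and CCDC3, which shares 147 exonic bases on the opposite strand, was at 0.0401 CPM in controls and 0.0112 CPM with the inhibitor.

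NBR1, a p62-like receptor gene, rose from 180.6 ± 11.6 to 254.2 ± 17.6 CPM (0.49 ± 0.06, adjusted p = 2.02e-07), and CALCOCO2, the NDP52 receptor gene, rose from 75.13 ± 3.69 to 101.5 ± 5.43 CPM (0.44 ± 0.06, adjusted p = 1.87e-06). The lncRNA gene ENSG00000267002, which overlaps NBR1 on the opposite strand, fell (-0.74). Per kilobase of exon the summed level of the 5 receptor genes was 68.5 ± 1.78 CPM in controls and 111 ± 4.66 CPM with the inhibitor. SQSTM1, TAX1BP1 and NBR1 held 26.8%, 28.1% and 31.3% of that sum in controls and 29.7%, 30.3% and 27.3% with the inhibitor, and OPTN held 0.523% and 1.63%.

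**Figure D3:**
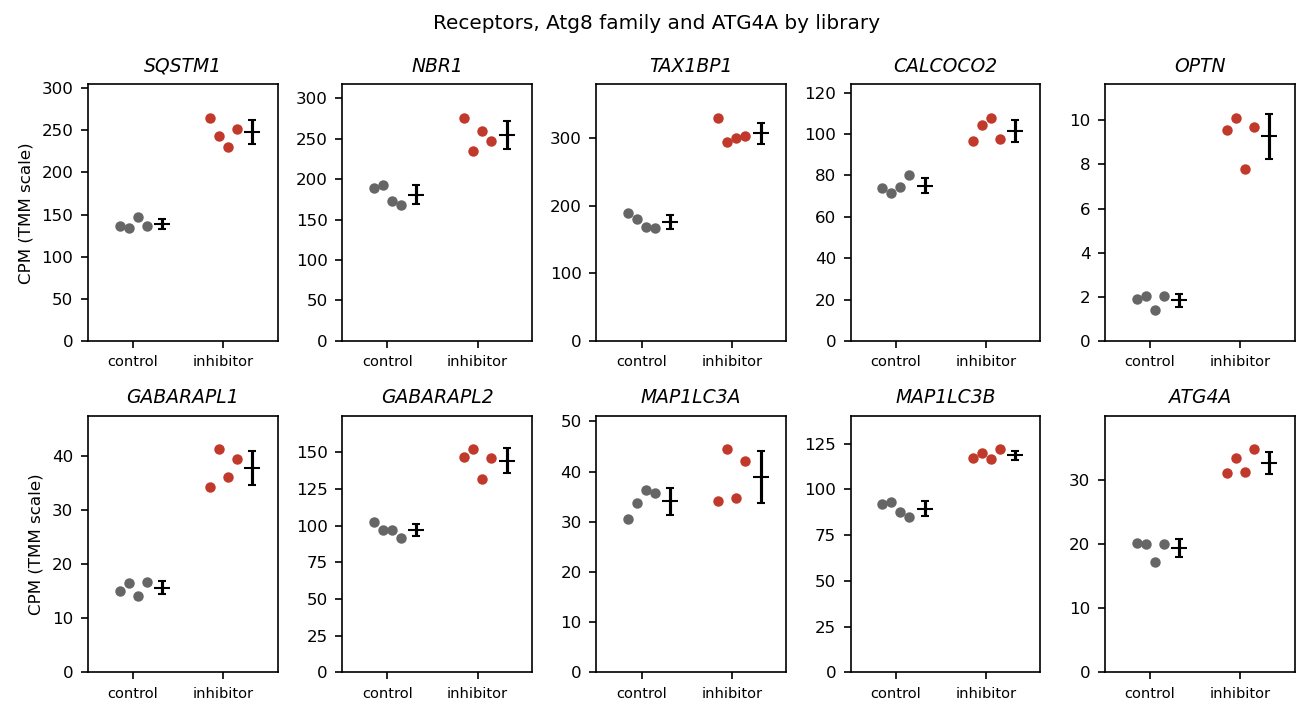
Level in CPM on the TMM scale (vertical axes, starting at 0, with a scale per gene) of the 5 receptor genes, 4 Atg8-family genes and ATG4A in each library, grey for control and red for inhibitor, replicates 1 to 4 from left to right, with the mean and SD in black. The groups are apart in every panel except MAP1LC3A.

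The MiT factors moved in opposite directions. TFEB (ENSG00000112561; chromosome 6, 41683978 to 41736259, minus strand) was at 11.67, 15.21, 16.32 and 16.7 CPM in controls and at 10.39, 10.47, 8.827 and 10.37 CPM with the inhibitor. All inhibitor libraries were below all controls, though control replicate 1 came close to them (1.49-fold lower; -0.58 ± 0.12, adjusted p = 0.000145). TFE3, on the X chromosome (49028726 to 49043410, minus strand), was at 27.17, 24.48, 28.21 and 26.06 CPM in controls and at 35.48, 40.09, 36.36 and 37.2 CPM with the inhibitor. All inhibitor libraries were above the controls (1.41-fold; 0.50 ± 0.08, adjusted p = 5.35e-06).

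MITF, named for its role in melanocytes, had the lowest level per kilobase of exon of the 3 MiT genes, with 6.5, 6.812, 6.806 and 6.553 CPM in controls and 9.829, 8.63, 10.02 and 8.021 CPM with the inhibitor. It rose without overlap (0.45 ± 0.12, adjusted p = 0.00325). The log2 ratio of TFE3 to TFEB was 0.83 ± 0.26 in controls and 1.90 ± 0.12 with the inhibitor (SD, n = 4). Per kilobase of exon, TFEB held 23.6% ± 3.07 of the summed level of the 3 genes in controls and 12.9% ± 0.929 with the inhibitor, TFE3 held 66.8% ± 3.06 and 76.5% ± 1.37, and the sum went from 9.42 ± 0.489 to 11.6 ± 0.452 CPM. TFE3 thus held the largest share of these 3 transcripts in both groups.

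ZKSCAN3, which encodes a zinc finger protein described as a repressor of autophagy genes, rose from 13.7, 12.44, 13.69 and 13.81 CPM in controls to 17.99, 19.78, 19.69 and 17.15 CPM (0.48 ± 0.09, adjusted p = 0.000103). FLCN was at 23.57, 29.23, 25.67 and 28.32 CPM in controls and at 24.68, 36.09, 30.4 and 29.59 CPM with the inhibitor. Its groups overlapped and it did not pass (0.19 ± 0.10, adjusted p = 0.113), but it was called without inhibitor replicate 1 (0.25, adjusted p = 0.0229), with total counts (0.29, adjusted p = 0.0223) and with the GC adjustment (0.28, adjusted p = 0.00667). Without inhibitor replicate 2 the FLCN value fell to 0.0825. Its exons share 1161 bases with ENSG00000264187 on the same strand.

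**Figure D4:**
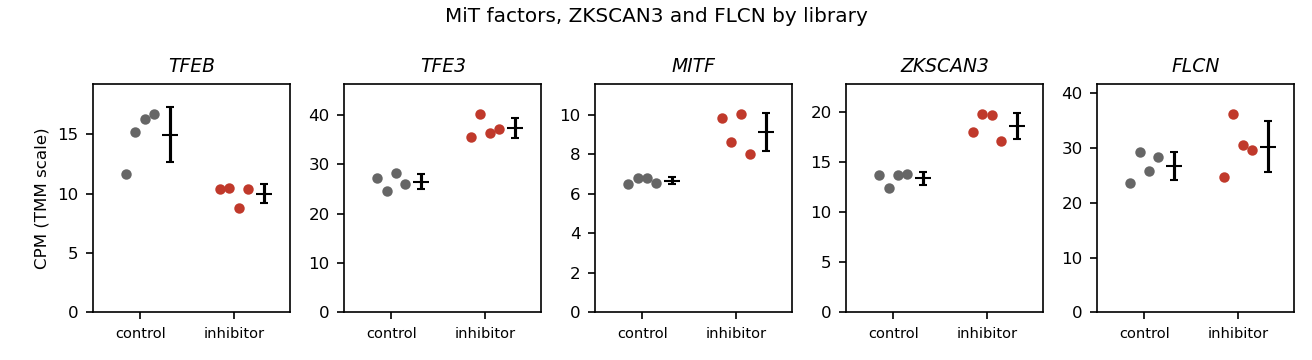
Level in CPM on the TMM scale (vertical axes, starting at 0, with a scale per gene) of TFEB, TFE3, MITF, ZKSCAN3 and FLCN in each library, grey for control and red for inhibitor, replicates 1 to 4 from left to right, with the mean and SD in black. TFEB is lower with the inhibitor, TFE3, MITF and ZKSCAN3 are higher, and the groups of FLCN overlap.

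The ratio within each library was computed for 8 pairs of paralogs (of the MiT genes, TFE3 and TFEB). In 5 pairs the control and inhibitor libraries did not overlap: ULK2 to ULK1, ATG4A to ATG4B, ATG4C to ATG4D, GABARAPL1 to GABARAPL2, and TFE3 to TFEB. They overlapped for ATG2B to ATG2A, for MAP1LC3B to MAP1LC3A and for WIPI1 to WIPI2, whose ratio was -3.41 ± 0.15 in controls and -3.45 ± 0.16 with the inhibitor. For single genes, the groups did not overlap in 51% of all tested genes, and no such share was computed for ratios. No test is given, since the pairs were chosen with the values of their genes known.

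MiT factors bind E-boxes with the core CACGTG, which in many lysosomal promoters is extended to the palindrome that joins GTCACGTG and its other strand CACGTGAC. Promoter windows from RefSeq (GRCh38.p14), 250 bases before to 50 after the gene start, were found for 37 of the 41 genes, all but RB1CC1, UVRAG, ATG4D and MAP1LC3A. They were searched on both strands for CACGTG, GTCACGTG and that palindrome, each of which contains the one before. CACGTG was in the windows of 2 of the 37 genes (5.41%) and in 7.26% of 35116 windows of all genes. GTCACGTG was in the same 2 genes and in 2.40% of all windows. The palindrome was in none of the 37 and in 0.353% of all windows. Shares of the 37 count genes, while shares of all count single windows. The 2 genes with CACGTG were ATG14, which rose, and ATG3, which did not pass. TCACGTGA was searched as well and was in 1 of the 37, ATG3 (2.70%), and in 0.98% of all windows. Stretches of 30 bases around the motif are shown because they are the matches found upstream of these genes, with GTCACGTG or its other strand CACGTGAC in capitals. They lie at chr14:55411833-55411862 for ATG14 and chr3:112561964-112561993 for ATG3, both on the minus strand. The motif begins 21 bases before the gene start in ATG14 and 20 bases before it in ATG3, which holds another match after the start.
ATG14: aaacaaaatccCACGTGACtggctctcctc
ATG3: ccctttctcacGTCACGTGccgggagagtc
These letters are a description of the window and not a measured binding site. The windows of OPTN, GABARAPL1 and SQSTM1 did not hold CACGTG.

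Other genes of the pathway were counted from lists of related genes. Beside these counts stand the shares over all tested genes, of which 29.8% rose and 28.3% fell. Of 13 tested core genes outside the 41, 6 rose and 4 fell (46.2% and 30.8%, median 0.16). ATG9B, a paralog of ATG9A, fell from 13.26 ± 1.04 to 3.545 ± 0.637 CPM (-1.90 ± 0.14, adjusted p = 1.45e-11), whereas NRBF2, a subunit of the PIK3C3 complex (0.62 ± 0.10), and SH3GLB1 (0.54 ± 0.07) rose. Of 14 other receptor genes, 9 rose and 3 fell (64.3% and 21.4%, median 0.28). RETREG1, an ER-phagy receptor gene, rose from 7.661 ± 1.16 to 20.78 ± 1.08 CPM (1.44 ± 0.11, adjusted p = 3.2e-11), and the mitophagy receptor gene BNIP3L (0.87 ± 0.06) and the ER-phagy gene CCPG1 (0.81 ± 0.13) rose. PHB2, which encodes prohibitin of the inner mitochondrial membrane, fell (-0.44 ± 0.05), as did the listed receptor genes TEX264 (-0.28 ± 0.06) and FKBP8 (-0.21 ± 0.06).

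Of 15 genes listed for fusion with the lysosome, 10 rose and 1 fell (66.7% and 6.67%, median 0.29). PLEKHM1, which encodes an adaptor between late endosomes and the tethering complex HOPS, rose (0.77 ± 0.09), as did the HOPS subunit genes VPS39 (0.55 ± 0.06) and VPS41 (0.48 ± 0.06). GORASP2 was the gene that fell (-0.25 ± 0.07).

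Control genes of mTORC1 and AMPK went both ways, 13 higher and 8 lower of 34 (38.2% and 23.5%, median 0.12). All tested genes went both ways too (29.8% and 28.3%). All 4 Rag GTPase genes rose: RRAGA (0.41 ± 0.06), RRAGB (0.62 ± 0.10), RRAGC (0.50 ± 0.09) and RRAGD (0.53 ± 0.07). Of the LAMTOR genes in the same list, LAMTOR2 fell (-0.42 ± 0.08, adjusted p = 5.56e-05). LAMTOR1, LAMTOR3, LAMTOR4 and LAMTOR5 did not pass. The leading rise was that of SESN3, a sestrin gene (36.86 ± 3.24 to 88.59 ± 9.73 CPM; 1.26 ± 0.08, adjusted p = 1.72e-12). Of the mTORC1 subunit genes in the list, 4 fell, with MTOR at -0.21 ± 0.06 (adjusted p = 0.00745), RPTOR at -0.23 ± 0.07, AKT1S1 at -0.30 ± 0.06 and MLST8 at -0.66 ± 0.06, and DEPTOR did not pass (0.16 ± 0.11, adjusted p = 0.212). RRAGA, RRAGB, the LAMTOR genes that did not pass, RPTOR, AKT1S1 and DEPTOR were named after their values were seen, to complete these families. DDIT4, which encodes the mTORC1 inhibitor REDD1, fell by 1.11 on the log2 scale. Of the FLCN partner genes, FNIP1 rose (0.30 ± 0.08, adjusted p = 0.00378) and FNIP2 did not pass (0.16 ± 0.13, adjusted p = 0.299).

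Genes that act on TFEB protein include those of the 14-3-3 proteins that hold it in the cytoplasm and of the phosphatase calcineurin that releases it. They gave 4 rises and 5 falls of 15 tested (26.7% and 33.3%, median -0.02). These shares are close to the 29.8% and 28.3% of all tested genes. SFN, the 14-3-3 sigma gene, fell from 450.7 ± 18.3 to 172.9 ± 1.74 CPM (-1.38 ± 0.05, adjusted p = 8.26e-17), and the calcineurin catalytic subunit gene PPP3CA fell (-0.72 ± 0.07), while YWHAZ, another 14-3-3 gene, rose (0.32 ± 0.06). MCOLN1, the lysosomal calcium channel gene upstream of calcineurin, rose by 0.20 ± 0.08 (adjusted p = 0.0299). Of 17 genes of other transcription factors and cofactors linked to autophagy, 8 rose and 6 fell (47.1% and 35.3%, median -0.10). The FOXO genes FOXO1 (0.39 ± 0.10), FOXO3 (0.63 ± 0.07) and FOXO4 (0.52 ± 0.08) and the oxidative stress factor gene NFE2L2 (0.24 ± 0.07) rose, and FOXK2 (-0.37 ± 0.06), a repressor of autophagy genes, the bile acid receptor gene NR1H4 (-0.86) and the sterol regulator gene SREBF2 (-0.27) fell.

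**Figure D5:**
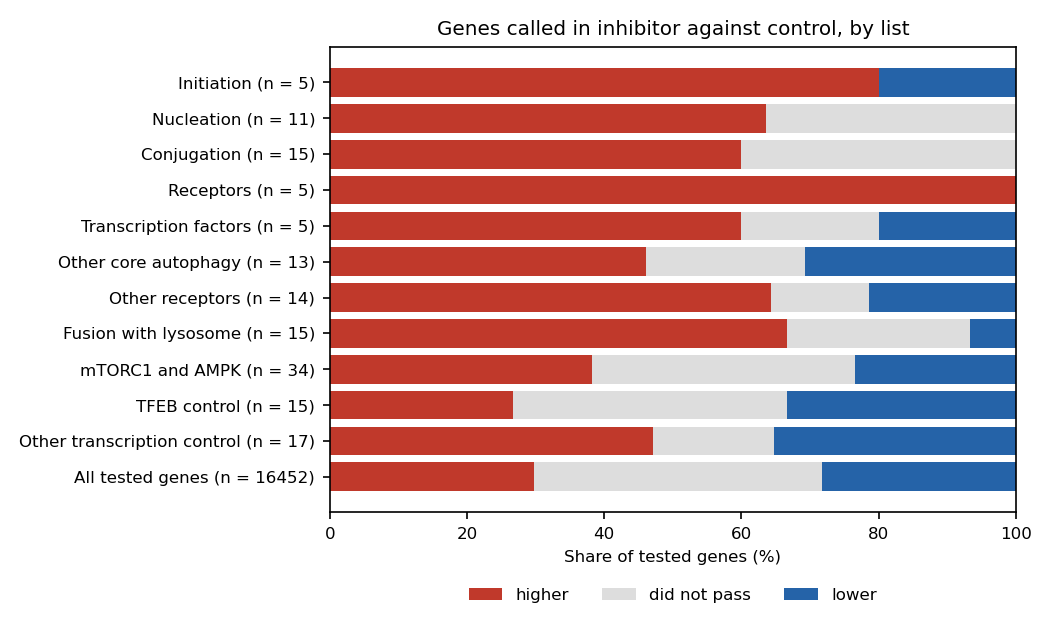
Share of tested genes (horizontal axis, percent) that rose (red), fell (blue) or did not pass (grey) in each step of the 41 genes, in each list of related genes and among all 16452 tested genes, with the number tested beside each name. The receptor bar is red throughout, and the bar of all genes holds 29.8% red and 28.3% blue.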

How the data were processed

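The authors deposited raw counts per Ensembl gene for each library. They made them with featureCounts on the hg38 build, per the labels and the submitters' processing notes, which name DESeq2 as well. The sources used here do not state the aligner, annotation, versions, strand setting or treatment of reads that fit several genes. Symbols, coordinates and exon lengths came from GENCODE release 44 on hg38 (58207 of 58735 identifiers matched). Levels per kilobase use the length of all annotated exons of a gene.

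Gene counts went into edgeR 4.0.16 (R 4.3.3; filterByExpr, TMM, robust glmQLFit, glmQLFTest on the group), with Benjamini-Hochberg adjustment over all 16452 tested genes. The SE of a log2 fold change is its size divided by the square root of F. The median SE was 0.0957. Tested on simulated data for this comparison (16458 genes), the fit found 36% of the genes with a 1.25-fold change and 86% of those with a 1.5-fold change. It also called 7 of 16259 genes without one. In the simulation few genes changed (50 of them 1.25-fold) and all had the same dispersion, whereas 58% of tested genes were called here. The shares found there thus need not hold for these data. Within groups, library pairs differed by more than sampling noise (chi-square of 1.71 to 9.47 per degree of freedom). Control replicates 1 and 2 (1.74) and 3 and 4 (1.71) were closer than the other control pairs (3.485 to 4.678). The fit treats the 4 controls as independent, and the cause of this grouping was not tested. Ratios of paralogs are described without a test.

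Members and lists were chosen with earlier results of these data known. All 41 genes may be named. Values in every library are given for GABARAPL1, SQSTM1, the MiT genes, FLCN and, per step and direction, up to 3 called genes with the smallest p. ULK1 and WDR45B were added after their values were seen, as were the promoter stretches. From the other lists up to 3 called genes per direction were taken, and some preset genes. The alternatives comprised scaling by RLE, by upper quartiles and by total counts, dropping the filter, requiring 1 CPM in 4 libraries, DESeq2 1.42.0, limma-voom (limma 3.58.1), dispersion without robust estimation, the replicate block, each library left out, an adjusted p under 0.01, thinning to the lowest total, and offsets for transcript GC content (available for 99.4% of the genes).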

Additional observations from a re-analysis of the deposited data

Results flagged for a closer look

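In each group of 4 libraries, the library farthest from the others was compared with the spread of the group (Dixon's gap ratio, 82 groups of the 41 genes). Chance flags about 1 in 20 groups, and 4 of 82 were found. ATG4A stood low in control replicate 3 (17.3 CPM). GABARAP stood low in inhibitor replicate 3 (0.981 CPM); without that library its log2 fold change was 0.62 (adjusted p = 0.0462), against 0.41 with it. TFEB stood low in inhibitor replicate 3 (8.83 CPM). ZKSCAN3 stood low in control replicate 2 (12.4 CPM).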

How the results depend on the processing

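Over 20 alternatives the number of the 41 genes that rose lay between 26 and 35, the number that fell was 2 in each, and every count by step stayed within 1.5 times. Of the 30 called genes, 28 kept their direction and call in all 20, and ATG14 and WIPI1 did not. DESeq2 called 27 higher and 2 lower. Of 820 comparisons of single genes with an alternative, 789 kept direction and side of the threshold, 7 lost the call, 17 gained it with the sign kept and 7 changed sign, 1 of them (ATG4D with the GC adjustment) also gaining a call. The sign changes were all in genes that had not passed: ATG4D (0.0358) and ATG16L1 (0.0668) with total counts, and ATG3 (-0.0663) and ATG4D (0.12) with the GC adjustment. Leaving out each library in turn gave -0.0775 to 0.00356 for ATG16L1, -0.0174 to 0.0761 for ATG3 and -0.0242 to 0.0841 for ATG2A. The group difference of the log2 ratio of WIPI1 to WIPI2 lay between -0.11 and 0.0154 (-0.04 with all libraries). The cause was not tested. The replicate block changed no call among the 41 genes (28 higher, 2 lower). Same-numbered libraries had correlations of 0.131, -0.0875, -0.0533 and 0.0838 of their deviations from the group means. Libraries with different numbers had -0.161 to 0.129. Whether the numbers pair the samples is not stated in the sources used here, and so few libraries cannot settle it. Small changes can be missed: on simulated counts 36% of genes changed 1.25-fold were recovered. Few genes changed in that simulation and all had the same dispersion, so this share need not hold for these data.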

Other observations

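Some relatives of the 41 genes had no or few counts and were not tested. TFEC, the remaining MiT family gene, and MAP1LC3C, an Atg8-family gene, had a count of 0 in all 8 libraries, which allows up to 0.141 to 0.237 CPM (3 counts per library, counting error only). BECN2, a paralog of BECN1, was at 0.239 ± 0.146 CPM in controls and 0.248 ± 0.145 CPM with the inhibitor (SD, n = 4). MAP1LC3B2, a near copy of MAP1LC3B whose reads can be hard to assign, was tested and did not pass (2.94 ± 0.613 and 3.57 ± 0.673 CPM; log2 fold change 0.26 ± 0.20 SE, edgeR quasi-likelihood adjusted p = 0.273).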
